A study of Saccharomyces cerevisiae with 8 samples.

Results

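The 41 genes described here encode nucleolar ribosome assembly factors of budding yeast, Saccharomyces cerevisiae. They were taken by name from the 6600 features of the count tables. They are part of the NOP, UTP, RRP and DBP families, together with NSR1, HAS1, MAK5, MAK16, BRX1, ERB1 and YTM1. Further genes of these families are not among the 41. By role, 13 are UTP factors of the small ribosomal subunit, 17 are factors of the large subunit, 3 are proteins of the box C/D small nucleolar particles and 8 act elsewhere in small-subunit assembly or for both subunits. RNA was sequenced from cultures at 16 h, in late log phase, of 5 strains that differ in the histone gene they carry. These were H4K16Q (2 libraries), H4H18A (2 libraries), WT H4 (2 libraries), H3E50A (1 library) and WT H3 (1 library), in which lysine 16 of histone H4 was replaced by glutamine, histidine 18 of H4 by alanine and glutamate 50 of H3 by alanine. All strains, WT strains included, shared the JDY86 background, a MATa haploid in which hht1-hhf1 is replaced by NatMX4 and the histone pair under study sits at hht2-hhf2 beside URA3. The background further carries met15Δ0, ura3Δ0, trp1Δ63, leu2Δ0, his3Δ200, can1::MFA1pr-HIS3 and an allele that the paper prints as K2Δ0. By this genotype the cells carried a single histone H3 and H4 gene pair, also in the WT strains. The strain labels of the H4K16Q and H4H18A libraries name histone H3, whereas the series design and the paper name H4, and the names of the design are used. The late log cultures were taken, in a study of chronological lifespan, to see the transcription programme before stationary phase.

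Ribosome assembly starts in the nucleolus, where RNA polymerase I makes a long precursor that holds the ribosomal RNA of both subunits. The UTP factors bind this precursor with the U3 small nucleolar RNA and form the small-subunit processome, box C/D proteins guide its methylation, and separate factors, many of them RNA helicases, fold and trim the large-subunit part. The genes of these factors are known in yeast as a coregulated group that is expressed in growing cells and is turned down when nutrients run short, and many carry 2 promoter elements, PAC (polymerase A and C) and RRPE (ribosomal RNA processing element).

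The upstream sequence of the genes shows these elements. The 250 bases before the start codon were read from the R64 genome of RefSeq on the coding strand and searched for GATGAG, the PAC core, on both strands (CTCATC on the opposite strand) and for AAAATTTT, the RRPE core, which reads the same on both strands. PAC and RRPE share no letters in the stretches printed here, whereas copies of PAC can overlap. The stretches below belong to 10 factors of the 4 roles whose levels are followed in the next paragraphs, and the capitals mark PAC and RRPE matches. All 10 hold both elements. Followed genes that lack an element, UTP22, NOP16 and NOP53 among them, are not printed.
NOP1, chrIV:427129-427175, plus strand: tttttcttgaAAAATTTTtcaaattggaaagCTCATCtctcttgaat
NOP58, chrXV:898458-898505, minus strand: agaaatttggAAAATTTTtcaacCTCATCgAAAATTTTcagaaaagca
NSR1, chrVII:807811-807853, minus strand: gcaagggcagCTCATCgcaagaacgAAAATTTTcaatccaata
UTP20, chrII:227417-227479, plus strand: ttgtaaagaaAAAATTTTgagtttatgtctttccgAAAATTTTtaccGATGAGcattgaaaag
UTP10, chrX:217394-217435, minus strand: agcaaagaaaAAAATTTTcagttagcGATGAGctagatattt
NOP7, chrVII:695266-695330, plus strand: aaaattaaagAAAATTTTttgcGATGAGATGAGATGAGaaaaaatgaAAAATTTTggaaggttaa
ERB1, chrXIII:370595-370645, minus strand: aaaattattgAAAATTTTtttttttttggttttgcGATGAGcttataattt
MAK16, chrI:101254-101289, minus strand: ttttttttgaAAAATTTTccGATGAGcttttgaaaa
RRP5, chrXIII:731259-731309, minus strand: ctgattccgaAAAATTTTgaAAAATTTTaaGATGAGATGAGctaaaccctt
DBP2, chrXIV:413474-413511, plus strand: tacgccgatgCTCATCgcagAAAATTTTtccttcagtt

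PAC stood upstream of 37 of the 41 genes (90.2%), against 973 of all 5897 genes with an upstream window (16.5%). RRPE stood upstream of 32 (78.0%), against 518 of all genes (8.78%), and both stood upstream of 29 (70.7%), against 245 of all genes (4.15%). UTP22 was the only 1 of the 41 with neither set of letters. PAC was in 10 of the 13 UTP windows and in 16 of the 17 large-subunit windows, and RRPE in 10 of 13 and 13 of 17. The 3 box C/D genes had both, and the 8 other members had PAC in 8 and RRPE in 6. PAC lay at a median of 124 bases before the start codon (70 to 229) and RRPE at 145 bases (33 to 225). In NOP7 the PAC core occurs 3 times in an overlapping run, and in NOP58 it sits between RRPE copies. A match of letters is a description and not a tested binding site.

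**Figure D1:**
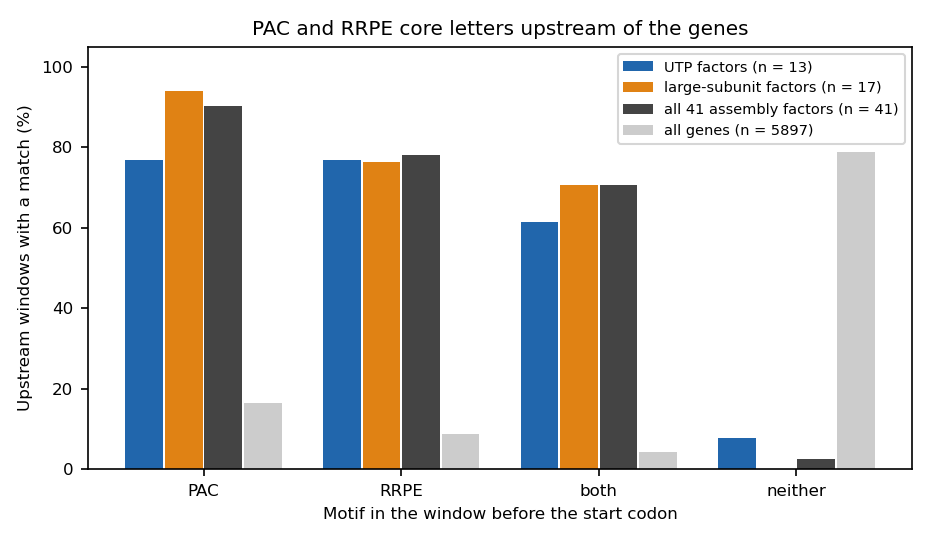
Share of upstream windows of 250 bases (y axis, percent) that hold the PAC core, the RRPE core, both or neither (x axis) for the 13 UTP factors, the 17 large-subunit factors, all 41 assembly factors and all 5897 genes. PAC and RRPE stand in 90.2% and 78.0% of the assembly factor windows, against 16.5% and 8.78% of all windows.

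The libraries differed in depth and make-up. They held 8645533 or more counts for H4K16Q, at most 852659 for H4H18A, 4296089 and 1196115 for WT H4, 4256296 for H3E50A and 1561683 for WT H3. Ribosomal RNA features took 0.180% to 1.88% of the counts in 4 libraries (both H4K16Q libraries, WT H4 replicate 1 and H3E50A) and 16.3% to 33.9% in the other 4. YGL088W, a reading frame that overlaps a small nucleolar RNA gene, took 22.9% of WT H4 replicate 1, 15.7% of H4H18A replicate 1 and between 0.372% and 3.82% of the remaining libraries. The labels give no batch for this split, and H3E50A and WT H3 lie on opposite sides of it. By their genotype all strains lack HHT1 and HHF1, and the histone pair under study, HHTS-HHFS, stands in place of HHT2 and HHF2. HHT1 and HHF1 had 32 to 4609 and 12 to 1286 counts. HHT2 had 20 to 2136, fewer than HHT1 in every library, and HHF2 had 0 in 7 libraries and 4 in H4K16Q replicate 2. Which annotated gene takes the reads of the HHTS-HHFS pair was not tested. These counts are no check of which strain a library holds. All 41 genes passed the filter on low counts, none overlaps another annotated gene, and 40 have an uninterrupted coding sequence, DBP2 having an intron. The smallest count of a member was 4 (NOP16 in H4H18A replicate 1), near the 3 counts that a count of 0 allows.

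The assembly factors differed widely between libraries of the same strain. Their summed level was 6037 and 4363 CPM (counts scaled to the effective library size by TMM) in H4K16Q, 3212 and 6619 CPM in H4H18A and 1862 and 7070 CPM in WT H4. It was 1846 CPM in H3E50A, against 5339 CPM in WT H3. H3E50A and WT H4 replicate 1 thus had the lowest levels, H4H18A replicate 1 came next, and WT H4 replicate 2 had the highest. In counts, the 41 genes made up 0.189% of H3E50A (95% Wilson interval 0.185% to 0.193%), 0.201% of WT H4 replicate 1 (0.197% to 0.205%) and 0.909% of WT H4 replicate 2 (0.893% to 0.927%). These intervals cover counting error only. In RNA of whole cultures, fewer cells that express a gene and less RNA per cell cannot be told apart.

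Of the 41 genes, 17 had their lowest level in WT H4 replicate 1 (20.7% of all 5962 genes did) and 17 in H3E50A (13.5% of all genes), with 5 in H4H18A replicate 1 (18.6%) and 2 in H4K16Q replicate 2 (8.24%). H3E50A and WT H4 replicate 1 were the 2 lowest libraries for 24 genes, against 12.8% of all genes. The highest level fell in WT H4 replicate 2 for 21 genes (11.6% of all genes), in H4K16Q replicate 1 for 11 (10.2%) and in H4H18A replicate 2 for 6 (11.2%). Within a strain the genes moved together. WT H4 replicate 1 was below replicate 2 for 40 of 41 genes, NOP53 being the exception (48.5% of all genes were lower in replicate 1), H4H18A replicate 1 was below replicate 2 for 39 (49.4% of all genes), and H4K16Q replicate 2 was below replicate 1 for 35 (54.7% of all genes). The median gene of the 41 differed 3.86-fold between the WT H4 libraries, 2.38-fold between the H4H18A libraries and 1.71-fold between the H4K16Q libraries. The same folds over all genes are not given, so their size is not read as a trait of the assembly factors.

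Gene groups known to follow growth were set beside these levels. The 137 cytoplasmic ribosomal protein genes summed to 61858 and 110743 CPM in H4K16Q, 65144 and 43624 CPM in H4H18A and 7369 and 45305 CPM in WT H4, and to 12947 CPM in H3E50A, against 48368 CPM in WT H3. They were lowest in the same libraries, WT H4 replicate 1 and H3E50A. The 17 genes known to be induced when glucose runs out, among them HSP12, ADH2 and SIP18, summed to 40100 and 9567 CPM in H4K16Q, 36886 and 1695 CPM in H4H18A and 30361 and 1325 CPM in WT H4, and to 97129 CPM in H3E50A, against 2722 CPM in WT H3. They were high in H3E50A, WT H4 replicate 1 and H4H18A replicate 1, but also in H4K16Q replicate 1, where the assembly factors were not low. The part of these differences between cultures in the results on the assembly factors was not tested.

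**Figure D2:**
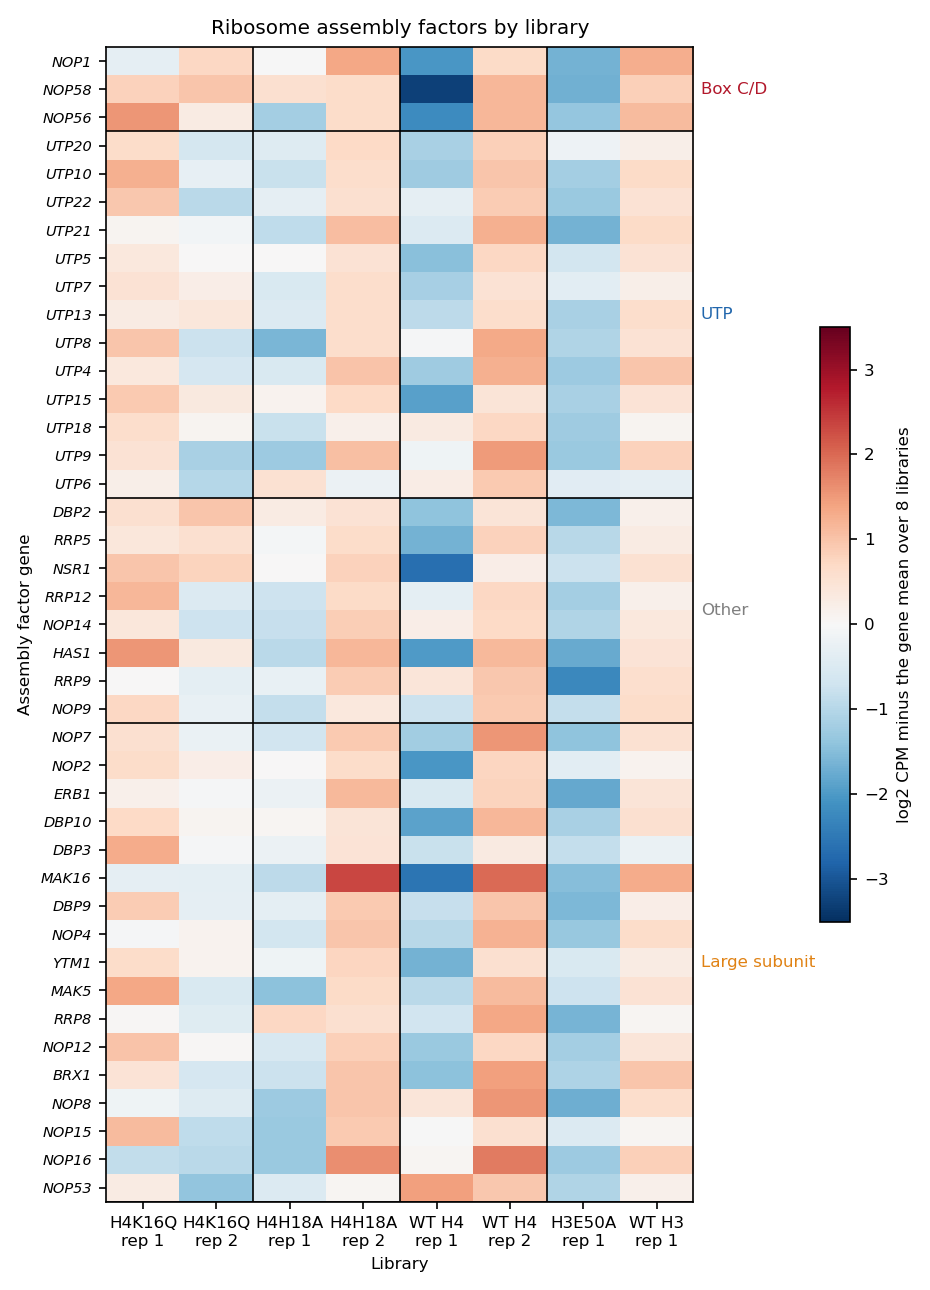
Level of each of the 41 assembly factors (rows, grouped by role and ordered by mean level) in each of the 8 libraries (columns), as log2 CPM minus the mean of that gene over the 8 libraries. H3E50A and WT H4 replicate 1 are low over most rows, each holding the lowest level of 17 genes, and WT H4 replicate 2 holds the highest level of 21.

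By the median of their genes, the box C/D proteins varied most between libraries of the 4 roles. NOP1 (YDL014W, chrIV:427364-428347), the yeast fibrillarin that methylates ribosomal RNA, stood at 139 and 286 CPM in H4K16Q, 169 and 443 in H4H18A and 41.8 and 274 in WT H4, and at 55.2 CPM in H3E50A, against 418 in WT H3. NOP56 (YLR197W, chrXII:546097-547611), a core protein of the same particles, stood at 172 and 71.8 CPM in H4K16Q, 25.9 and 91.8 in H4H18A and 12.9 and 131 in WT H4, and at 23.2 CPM in H3E50A, against 128 in WT H3. NOP58 (YOR310C, chrXV:896825-898360), the partner of NOP56, stood at 159 and 179 CPM in H4K16Q, 134 and 143 in H4H18A and 9.48 and 203 in WT H4, and at 28.4 CPM in H3E50A, against 163 in WT H3. All 3 were lowest in WT H4 replicate 1, with H3E50A next, and both H4K16Q libraries lay between the WT H4 libraries for NOP58 only. The highest library exceeded the lowest 10.6-fold for NOP1, 13.3-fold for NOP56 and 21.4-fold for NOP58, against a median of 6.88-fold over the 41 genes. By gene, MAK16 exceeded all 3, and NSR1 (12.2-fold) and HAS1 (11.4-fold) exceeded NOP1.

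By the same measure the UTP factors varied least, with a median of 4.76-fold between the highest and the lowest library and a range of 3.42-fold for UTP13 to 7.59-fold for UTP8. UTP20 (YBL004W, chrII:227636-235117), a very large processome protein, stood at 436 and 182 CPM in H4K16Q, 205 and 455 in H4H18A and 128 and 495 in WT H4, and at 247 CPM in H3E50A, against 325 in WT H3. UTP10 (YJL109C, chrX:212000-217309), of the UtpA complex that binds the precursor first, stood at 342 and 118 CPM in H4K16Q, 84.7 and 222 in H4H18A and 60.4 and 281 in WT H4, and at 63.7 CPM in H3E50A, against 228 in WT H3. UTP22 (YGR090W, chrVII:662358-666071), of the UtpC complex, stood at 189.9 and 50.9 CPM in H4K16Q, 80.0 and 146 in H4H18A and 78.7 and 181 in WT H4, and at 39.9 CPM in H3E50A, against 141 in WT H3. The libraries of each H4 strain overlapped those of the other strains for these 3 genes. UTP6 (YDR449C, chrIV:1357580-1358902), of the UtpB complex, was the lowest member per length, at 16.8 and 7.29 CPM in H4K16Q, 21.2 and 12.6 in H4H18A and 17.2 and 27.3 in WT H4, and at 11.0 CPM in H3E50A, against 11.7 in WT H3. The other 9 factors, UTP4, UTP5, UTP8, UTP9 and UTP15 of UtpA, UTP13, UTP18 and UTP21 of UtpB, and UTP7, lay between 13.8 CPM (UTP9 in H3E50A) and 188 CPM (UTP21 in WT H4 replicate 2).

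Among the large-subunit factors, the PeBoW complex (NOP7, ERB1 and YTM1) is needed to process the precursor of the large-subunit RNA. NOP7 (YGR103W, chrVII:695417-697234) stood at 222 and 129 CPM in H4K16Q, 94.1 and 287 in H4H18A and 64.9 and 437 in WT H4, and at 56.6 CPM in H3E50A, against 219 in WT H3. ERB1 (YMR049C, chrXIII:368094-370517) stood at 129 and 112 CPM in H4K16Q, 98.8 and 250 in H4H18A and 78.7 and 196 in WT H4, and at 33.2 CPM in H3E50A, against 156 in WT H3. Both had their lowest level in H3E50A and a 2-fold or larger gap between the WT H4 libraries. NOP2 (YNL061W, chrXIV:510540-512396), a methyltransferase of the large-subunit RNA, stood at 243 and 180.3 CPM in H4K16Q, 155 and 243 in H4H18A and 37.9 and 261 in WT H4, and at 119 CPM in H3E50A, against 168 in WT H3. MAK16 (YAL025C, chrI:100225-101145), of an early precursor particle, stood at 42.2 and 42.1 CPM in H4K16Q, 28.2 and 267 in H4H18A and 9.05 and 208 in WT H4, and at 18.8 CPM in H3E50A, against 130.2 in WT H3. MAK16 had the widest range of the 41 genes, 29.5-fold, and nearly equal levels in the H4K16Q libraries.

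NOP16 and NOP53, also of the large subunit, followed other orders. NOP16 (YER002W, chrV:156803-157498), a constituent of early large-subunit precursors, stood at 12.7 and 11.9 CPM in H4K16Q, 9.41 and 71.1 in H4H18A and 24.1 and 81.9 in WT H4, and at 9.63 CPM in H3E50A, against 41 in WT H3. NOP53 (YPL146C, chrXVI:276162-277529), which brings the nuclear exosome to the large-subunit precursor, stood at 32.1 and 10.1 CPM in H4K16Q, 18.8 and 27.5 in H4H18A and 71.3 and 50 in WT H4, and at 12.6 CPM in H3E50A, against 29.95 in WT H3. NOP53 was the only 1 of the 41 genes that was highest in WT H4 replicate 1. The RNA helicases DBP3, DBP9, DBP10 and MAK5 lay between 18.8 CPM (MAK5 in H4H18A replicate 1) and 229.9 CPM (DBP3 in H4K16Q replicate 1). The remaining large-subunit factors, NOP4, NOP8, NOP12, NOP15, BRX1, RRP8 and YTM1, lay between 8.71 CPM (NOP8 in H3E50A) and 162 CPM (NOP4 in WT H4 replicate 2).

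NSR1 (YGR159C, chrVII:806412-807656), a nucleolin-like protein of precursor processing, stood at 393 and 344 CPM in H4K16Q, 202 and 351 in H4H18A and 32.1 and 232 in WT H4, and at 119 CPM in H3E50A, against 289 in WT H3. DBP2 (YNL112W, chrXIV:413639-416281), an RNA helicase with roles in ribosome and messenger RNA assembly, stood at 571 and 757 CPM in H4K16Q, 471 and 549 in H4H18A and 144 and 525 in WT H4, and at 128 CPM in H3E50A, against 436 in WT H3. For NSR1 and DBP2 both H4K16Q libraries lay above both WT H4 libraries. RRP5 (YMR229C, chrXIII:725934-731123), needed for both subunits, stood at 474 and 531 CPM in H4K16Q, 344 and 557 in H4H18A and 115 and 633 in WT H4, and at 183 CPM in H3E50A, against 435 in WT H3. RRP12 (YPL012W, chrXVI:529723-533409), which acts in export of both subunits, stood at 259.5 and 84.3 CPM in H4K16Q, 70.6 and 186 in H4H18A and 92.3 and 192 in WT H4, and at 51.4 CPM in H3E50A, against 131 in WT H3. The RRP5 libraries of both mutants lay between those of WT H4, and RRP12 was high in a single H4K16Q library. HAS1, a helicase of both subunits, and the small-subunit factors NOP9, NOP14 and RRP9 lay between 10.5 CPM (RRP9 in H3E50A) and 173 CPM (HAS1 in H4K16Q replicate 1).

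Per kilobase of coding sequence, UTP factors stood below large-subunit factors. The mean level over the 8 libraries had a median of 32.4 CPM per kb over the 13 UTP factors (11.8 for UTP6 to 48.0 for UTP5) and of 47.0 over the 17 large-subunit factors (23.1 for NOP53 to 104 for NOP7). Box C/D proteins had a median of 82.9 CPM per kb, and DBP2 (273), NOP1 (232) and NSR1 (197) were the highest of all 41. The median of the UTP factors was below that of the large-subunit factors in 7 of the 8 libraries, H4K16Q replicate 1 being the exception (51.1 against 50.5 CPM per kb). The balance of both groups moved less than their level. The summed CPM of UTP over large-subunit factors gave ratios of 1.002 and 0.846 for H4K16Q, 0.853 and 0.798 for H4H18A and 1.001 and 0.825 for WT H4, and a ratio of 1.15 for H3E50A, against 0.977 for WT H3. This ratio thus spanned 1.44-fold between libraries, whereas the summed level of the 41 genes spanned 3.83-fold. UTP20 made up 39.4% of the summed UTP level in H3E50A, against 21.8% in WT H3. Without UTP20, a choice made after its level was seen, the ratio was 0.697 in H3E50A, against 0.764 in WT H3, so the order of these 2 libraries turned, and the span over the 8 libraries was 1.35-fold.

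**Figure D3:**
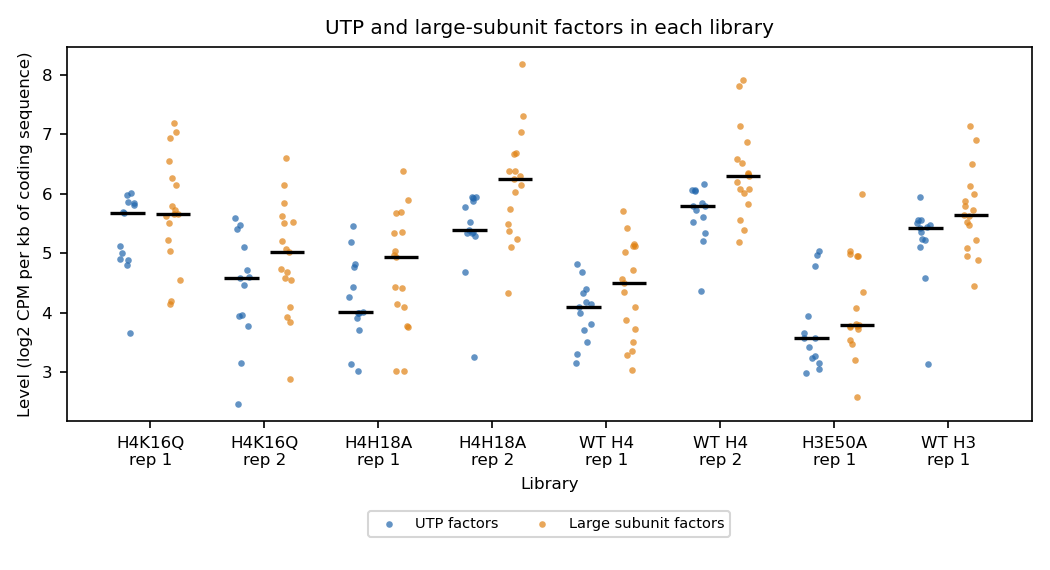
Level of the 13 UTP factors (left in each pair) and the 17 large-subunit factors (right) in each library, as log2 CPM per kb of coding sequence, with each point a gene and each bar the median. Both groups are low in H3E50A and WT H4 replicate 1, and the large-subunit median is above the UTP median in 7 of the 8 libraries.

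H3E50A was compared with WT H3 with 1 library of each strain, so the ratios have no replicate check and no test, and their intervals cover counting error only. All 41 genes were lower in H3E50A, against 49.7% of all 5962 genes, with a median log2 ratio of -1.68 where the median of all genes was 0. A ratio of 2-fold or more lower was seen for 34 of the 41 genes (23.2% of all genes) and of 4-fold or more lower for 13 (8.39% of all genes). The 95% counting interval lay wholly below 0 for 40 genes, UTP6 being the exception. NOP1 had the lowest ratio, -2.91 (-3.14 to -2.70). RRP9, which binds the U3 RNA, was next at -2.79 (-3.37 to -2.34), with 10.5 CPM in H3E50A, against 75.5 in WT H3, then MAK16 at -2.76 (-3.18 to -2.41), NOP58 at -2.50 (-2.84 to -2.20) and NOP56 at -2.44 (-2.82 to -2.11). The counting intervals of these 5 genes overlap.

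UTP and large-subunit factors overlapped in this comparison. The 13 UTP ratios had a median of -1.59 and lay between -2.30 for UTP21 and -0.09 (-0.90 to 0.78) for UTP6, and 10 of them were 2-fold or more lower. The 17 large-subunit ratios had a median of -1.68 and lay between -2.76 for MAK16 and -0.50 (-0.72 to -0.28) for NOP2, and 13 were 2-fold or more lower. The medians differed by 0.08, and the interquartile ranges were -1.83 to -1.15 for the UTP factors and -2.004 to -1.22 for the large-subunit factors. Within the UTP group, the 6 factors of the UtpA complex had a median of -1.71 and the 4 of UtpB of -1.54, and the PeBoW proteins stood at -1.94 for NOP7, -2.21 for ERB1 and -0.80 for YTM1. UTP10 stood at -1.83 (-2.07 to -1.61), UTP22 at -1.81 (-2.11 to -1.52) and UTP20 at -0.40 (-0.55 to -0.24). The 8 other members had a median of -1.44, with NSR1 at -1.27 (-1.46 to -1.09), DBP2 at -1.76 (-1.93 to -1.60), RRP5 at -1.25 (-1.40 to -1.10) and RRP12 at -1.34 (-1.63 to -1.07). The 7 genes that were less than 2-fold lower were YTM1, DBP3, UTP7, NOP15, NOP2, UTP20 and UTP6.

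**Figure D4:**
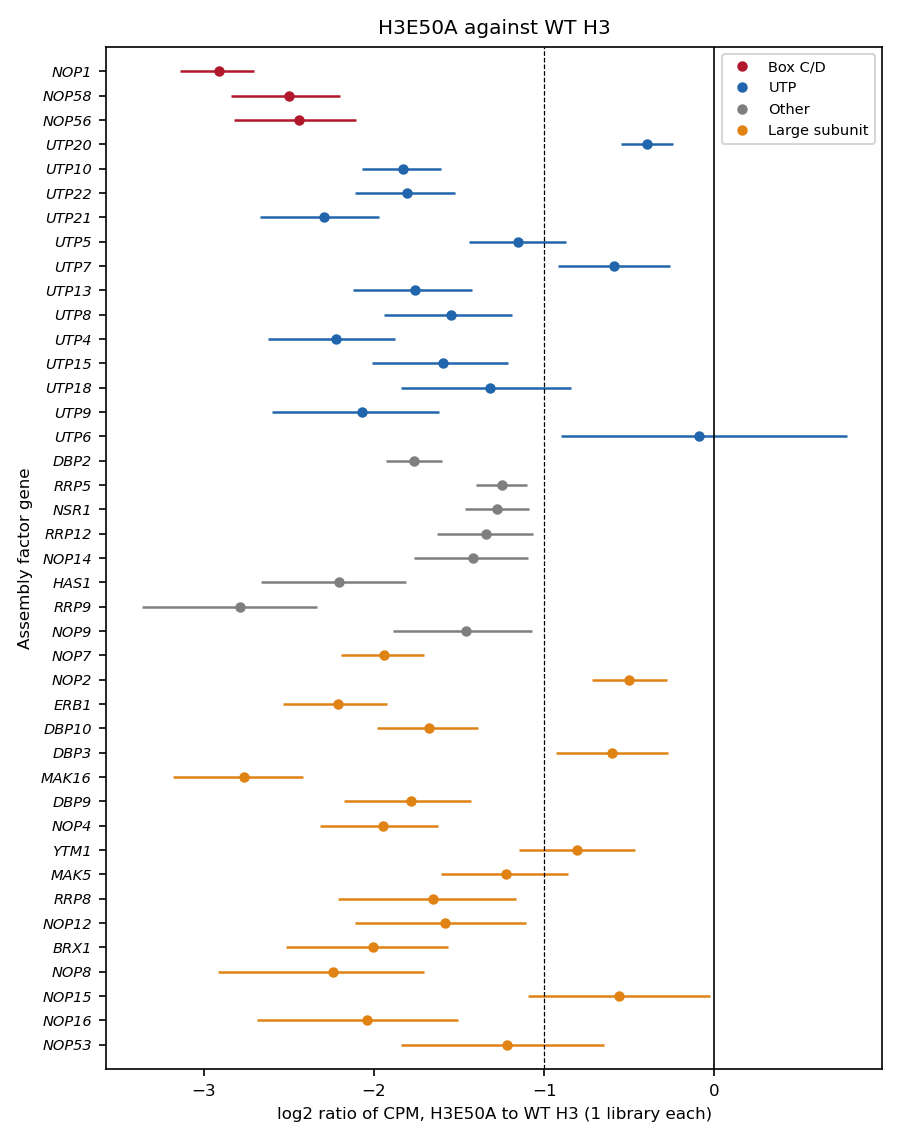
Log2 ratio of CPM of H3E50A to WT H3 (x axis, 1 library each) for the 41 assembly factors (rows), coloured by role, with the 95% counting interval as a line and a dashed line at a 2-fold lower level. All points lie below 0, from -2.91 for NOP1 to -0.09 for UTP6, and 34 lie at or beyond the dashed line.

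The result depended on which WT library served as the control. Set against WT H4 replicate 2, all 41 genes were lower in H3E50A (51% of all genes), with a median of -2.13. WT H4 replicate 1 has a low share of ribosomal RNA features, as H3E50A does, but YGL088W took 22.9% of it, against 3.82% of H3E50A. Set against WT H4 replicate 1, 23 genes were lower in H3E50A (45.9% of all genes). The other 18 were higher, and the median was -0.08. In this setting 10 genes were 2-fold or more lower (19.1% of all genes) and 5 were 2-fold or more higher (1110 of all 5962 genes). NOP1, NOP56 and NOP58 stood at 0.40, 0.82 and 1.54, whereas RRP9, NOP53 and NOP8 stood at -2.64, -2.46 and -2.07. H3E50A and WT H3 differ in strain, depth and library make-up at once, and these cannot be told apart.

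Other genes of the pathway, taken from lists by role, mostly lay on the same side in H3E50A against WT H3. These lists include further NOP, UTP, RRP and DBP genes. Of 45 other small-subunit factors 44 were lower, 30 of them 2-fold or more, with a median of -1.22. Of 45 other large-subunit factors 42 were lower, 28 of them 2-fold or more, with a median of -1.43. Of the 4 H/ACA particle proteins, which guide pseudouridine formation, 3 were lower, 2 of them 2-fold or more. The remaining 1 was 2-fold or more higher, at 1.15, and the median was -1.61. These lists were not set against the WT H4 libraries.

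In H4K16Q against WT H4 no assembly factor was called, and no gene of the 5669 tested was (0% of all genes, quasi-likelihood test of edgeR, Benjamini-Hochberg adjusted p = 0.997 at the lowest). DESeq2's Wald test called none of the 41 either, and 15 genes in all. At an unadjusted p under 0.05 stood 2 of the 41 genes, against 3.72% of all genes, and both were lower in H4K16Q. They were NOP16, with a log2 fold change of -2.10 (SE 0.89, unadjusted p = 0.0413 in edgeR's quasi-likelihood test), and NOP53, with -1.53 (SE 0.68, unadjusted p = 0.0479 in the same edgeR test). The fold change was above 0 for 22 of the 41 genes, against 44.4% of all genes, with a median of 0.07 where all genes had -0.10. Both H4K16Q libraries lay below both WT H4 libraries for 5 genes (18.3% of all genes), UTP6, NOP8, NOP16, NOP53 and RRP9, and above both for 2 (12.6% of all genes), NSR1 and DBP2. NOP8, an early large-subunit factor, stood at 25.7 and 20.8 CPM in H4K16Q, against 38.2 and 83.2 CPM in WT H4, and RRP9 at 50.7 and 40 CPM in H4K16Q, against 68.1 and 96.2 CPM in WT H4. NSR1 had the highest fold change, 1.48 (SE 0.98), and DBP2 had 0.98 (SE 0.95), and neither passed the edgeR test (adjusted p = 0.997 for both).

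By role, the fold changes in H4K16Q had a median log2 value of 0.67 for the 3 box C/D proteins, 0.34 for the 8 other members, -0.12 for the UTP factors and -0.20 for the large-subunit factors. NOP1 stood at 0.42 (SE 0.99), NOP56 at 0.76 (SE 1.01) and NOP58 at 0.67 (SE 1.07). UTP10 stood at 0.43 (SE 0.94), UTP20 at -0.02 (SE 0.95), UTP22 at -0.12 (SE 0.79) and UTP6 at -0.88 (SE 0.72). The standard error exceeded the size of the fold change for each of these genes but UTP6. NOP7 stood at -0.52 (SE 0.98), ERB1 at -0.20 (SE 0.74), NOP2 at 0.50 (SE 0.90) and MAK16 at -1.36 (SE 1.26), and RRP5 at 0.42 (SE 0.995) and RRP12 at 0.27 (SE 0.81). Both H4K16Q libraries lay between the WT H4 libraries for 18 of the 41 genes. The share over all genes is not given for this count, so it is not read as a trait of the assembly factors. Without H4K16Q replicate 1 the median over the 41 genes was -0.37 and 15 were higher in H4K16Q. Without replicate 2 the median was 0.36 and 25 were higher. The values of all genes are not given for these fits, so a shift of all genes cannot be told apart.

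In H4H18A against WT H4 none of the 41 genes and none of the 5669 tested was called (0% of all genes, quasi-likelihood test of edgeR, Benjamini-Hochberg adjusted p = 0.999 at the lowest), nor by DESeq2, and none of the 41 had an unadjusted p under 0.05, against 2.22% of all genes. The fold change was above 0 for 19 of the 41, against 44.4% of all genes, and the median was -0.04 where all genes had -0.09. Both H4H18A libraries lay below both WT H4 libraries for 2 genes (15.7% of all genes), UTP18, of the UtpB complex, and NOP53, and above both for none (10.3% of all genes). UTP18 stood at 23.5 and 45.9 CPM in H4H18A, against 50.4 and 66.3 CPM in WT H4. NSR1 had the highest fold change, 1.08 (SE 0.97), and NOP53 the lowest, -1.37 (SE 0.71), and the comparison shares its WT H4 libraries with that of H4K16Q. The medians by role were 0.40 for box C/D proteins, 0.03 for the other members, -0.04 for the large-subunit factors and -0.14 for the UTP factors. NOP1 stood at 0.96 (SE 0.99), NOP58 at 0.40 (SE 1.07), NOP56 at -0.25 (SE 1.02), UTP20 at 0.09 (SE 0.95), NOP7 at -0.39 (SE 0.98) and ERB1 at 0.35 (SE 0.75). UTP10, UTP22, NOP2, DBP2, RRP5, RRP12, NOP16, MAK16 and UTP6 lay between -0.42 (UTP6, SE 0.77) and 0.61 (DBP2, SE 0.95). Both H4H18A libraries lay between the WT H4 libraries for 15 of the 41 genes, a count again without the share over all genes. The H4H18A libraries also differed. Without replicate 1 the median was 0.44 with 35 genes higher, whereas without replicate 2 it was -0.89 with 10 higher. As for H4K16Q, no values of all genes stand beside these, so a shift of all genes cannot be told apart.

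H4K16Q against H4H18A gave no call among the 41 genes or all genes (0% of all genes, quasi-likelihood test of edgeR, Benjamini-Hochberg adjusted p = 0.999996 at the lowest). None of the 41 had an unadjusted p under 0.05 (1.55% of all genes), and DESeq2 called none of the 41 and 6 genes in all. The median was 0.08 where all genes had 0.07, and 22 of the 41 were higher in H4K16Q (55% of all genes). NOP56 had the highest value, 1.02 (SE 1.03), and MAK16 the lowest, -1.83 (SE 1.28). NOP58 and DBP2 were higher in both H4K16Q libraries than in both H4H18A libraries (14.6% of all genes were), and RRP8, a methyltransferase of the large-subunit RNA, was lower in both, at 43.8 and 31.5 CPM in H4K16Q, against 70.6 and 63.1 CPM in H4H18A (11.4% of all genes were lower in both). Without H4H18A replicate 1 the number of the 41 genes higher in H4K16Q was 8. Without H4H18A replicate 2 it was 39 (median 0.83), and MAK16 stood at 0.67. Without H4K16Q replicate 1 it was 10 (median -0.36). No share of all genes stands beside these counts, so they are not read as a result on the assembly factors alone.

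In both mutants the direction of the median turned with the WT H4 library used. With WT H4 replicate 1 alone as the control, 35 of the 41 genes were higher in H4K16Q (51.9% of all genes), with a median of 1.40, and 16 had an unadjusted p under 0.05 (17.1% of all genes). Against the same library 36 were higher in H4H18A (46.7% of all genes), with a median of 1.35, 11 had an unadjusted p under 0.05 (15.8%), and none was called (0.216%). With WT H4 replicate 2 alone, 4 were higher in H4K16Q (51.8% of all genes), with a median of -0.57 and 4 at an unadjusted p under 0.05 (5.38%). Against that library 3 were higher in H4H18A (50% of all genes), with a median of -0.57 and none at an unadjusted p under 0.05 (2.31%). NOP58 was the only member called in any of these fits, with a log2 fold change of 4.30 (SE 0.91, adjusted p = 0.0383, edgeR's quasi-likelihood test) in H4K16Q against WT H4 replicate 1, a fit that called 0.966% of all genes. The WT arm of that fit is the library with the lowest NOP58 level of all 8, and its spread comes from the H4K16Q and H4H18A libraries, with the lone WT library assumed to vary like them. Both H4K16Q libraries share the low ribosomal RNA share of WT H4 replicate 1, and both H4H18A libraries the high share of WT H4 replicate 2. Libraries alike in that share still differed. YGL088W took 22.9% of WT H4 replicate 1, against 1.39% and 3.55% of the H4K16Q libraries. It took 15.7% and 0.372% of the H4H18A libraries, against 1.14% of WT H4 replicate 2. Strain and library make-up cannot be told apart here. Each fit without a WT H4 library rests on a single WT library.

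**Figure D5:**
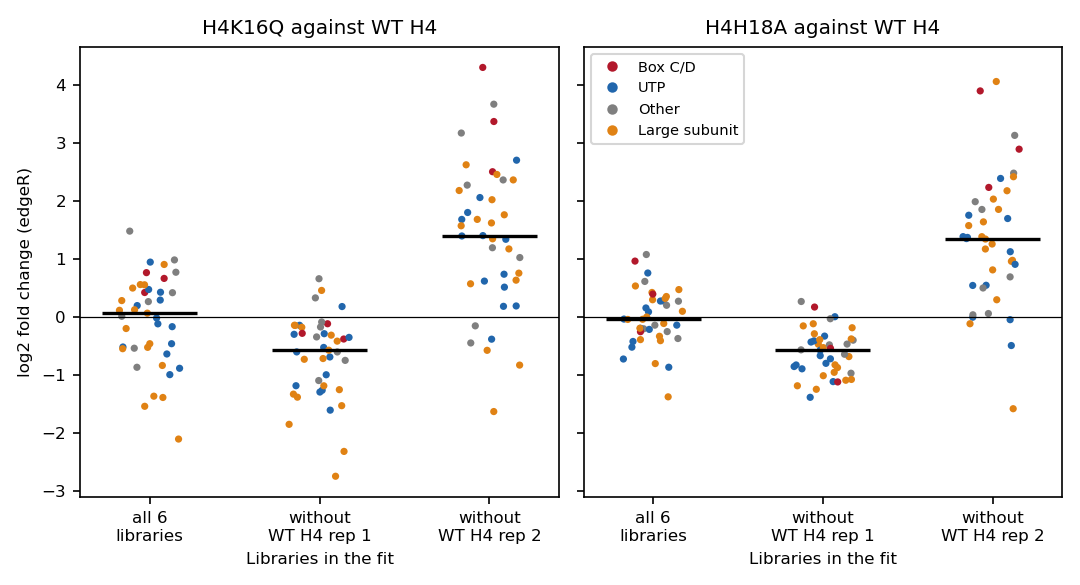
Log2 fold change of the 41 assembly factors (points, coloured by role) in H4K16Q (left) and H4H18A (right) against WT H4, from fits with all 6 libraries and with either WT H4 library left out (replicate 1, then replicate 2), with the median as a bar. The median for H4K16Q is 0.07, -0.57 and 1.40 in these fits, and for H4H18A -0.04, -0.57 and 1.35.

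Genes outside the assembly lists that carry the same upstream letters were set beside the factors. They were set apart only by absence from the lists, so they can include other genes of ribosome synthesis. In H3E50A against WT H3 the 29 assembly factors with both PAC and RRPE had a median log2 ratio of -1.76, the 8 with PAC alone had -1.56, the 3 with RRPE alone -1.59 and UTP22, with neither, -1.81. Of the 29 with both, 75.9% were 2-fold or more lower, as were all 12 of the others. Among genes on no assembly list, the 147 with both motifs had a median of -0.64, the 258 with RRPE alone -0.39, the 666 with PAC alone -0.04 and the 4510 with neither 0.10. The share of 2-fold or more lower genes was 36.7% with both motifs, 31.8% with RRPE alone, 23.0% with PAC alone and 20.3% with neither. The same order of these genes held between the WT H4 libraries, where the median log2 ratio of replicate 1 to replicate 2 was -1.30 with both motifs, -0.67 with RRPE alone, -0.05 with PAC alone and 0.15 with neither. For the assembly factors it was -1.99 with both, -2.33 with RRPE alone, -1.69 with PAC alone and -1.20 for UTP22. These are descriptions of single libraries, with no test.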

How the data were processed

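RNA of 8 cultures at 16 h was sequenced, with 1 library each. The authors prepared stranded total RNA libraries, trimmed the reads with Trim Galore, mapped them with RNA STAR to R64 and counted reads per gene with featureCounts, whose versions and strand setting are not given in the sources used here. The deposited counts are whole numbers, not normalized, over 6600 features. The authors' 5 edgeR tables hold fold changes, average levels, test statistics and p-values of their own comparisons and were not used. Replicates were prepared independently, per the methods of the study.

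The 41 genes and the other lists were chosen with earlier results of these data known. Of the 6600 features, 5917 (89.65%) matched the RefSeq annotation of R64, all 41 genes among them. The 3 H4 strains entered a single fit in R 4.3.3 with edgeR 4.0.16 (TMM scaling, filterByExpr with a minimum count of 10 and a minimum total of 15, quasi-likelihood test, Benjamini-Hochberg adjustment over 5669 genes, threshold 0.05). The standard errors (SE) were derived from this test, as the size of the log2 fold change over the square root of the F statistic. H3E50A ratios of CPM had 2 as the prior count and covered 5962 genes (the same filter applied to 8 libraries), with exact conditional 95% intervals. Alternatives were DESeq2 1.42.0, the likelihood-ratio test, other scalings, filters, libraries and controls, and a replicate block. A feature with 3 counts stood between 0.217 and 7.06 CPM. In simulated counts the fit called most changed genes at a small spread and few at the spread of these libraries, so a missing call does not show equal levels. Levels are relative to the counts of a library, so the share taken by ribosomal RNA and other abundant features can shift them, which TMM scaling reduces.

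Levels in every library and fold changes are given for NOP1, NOP56, NOP58, NSR1, the 3 genes with the highest mean CPM among the UTP factors, the large-subunit factors and the other members, and the highest and lowest gene of each comparison. Genes named beyond these were chosen after their values were seen. The ChIP-seq experiments of the study were not analysed here.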

Additional observations from a re-analysis of the deposited data

Results flagged for a closer look

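NSR1, the nucleolin-like factor, and DBP2, an RNA helicase, had values of opposite sign in 2 comparisons, with every H4K16Q library above every WT H4 library and the H3E50A library below that of WT H3. NSR1 had a log2 value of 1.48 in H4K16Q against WT H4 and of -1.27 in H3E50A against WT H3. DBP2 had 0.98 in H4K16Q against WT H4 and -1.76 in H3E50A against WT H3. Opposite signs are not particular to these genes. All 41 were below 0 in H3E50A against WT H3, and 22 were above 0 in H4K16Q. Of the 41, only these 2 had both H4K16Q libraries above both WT H4 libraries. This held for 12.6% of all genes, so it is not read as a trait of NSR1 and DBP2. Neither passed edgeR's quasi-likelihood test in H4K16Q against WT H4 (adjusted p = 0.997 for both). Against WT H4 replicate 1, H3E50A stood at 1.88 for NSR1 and -0.17 for DBP2. The difference between the mutants was not tested, since H3E50A and WT H3 have 1 library each.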

How the results depend on the processing

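No assembly factor was called in any of the 3 H4 comparisons under the other tests, scalings, filters and sets of libraries, apart from NOP58 in H4K16Q without WT H4 replicate 2. Over all genes, DESeq2's Wald test called 15 in H4K16Q against WT H4 and 6 in H4K16Q against H4H18A, and edgeR's likelihood-ratio test called 5 in each, where the quasi-likelihood test called 0. Scaling by total counts moved the median of all genes to -0.26 in H4K16Q and -0.56 in H4H18A (-0.10 and -0.09 with TMM) and to 0.36 between the mutants (0.07 with TMM), and the share of genes above 0 to 36.2%, 19.8% and 72.2%. Under that scaling 6 assembly factors were above 0 in H4H18A, whose NOP58, UTP20, NOP2, ERB1 and RRP5 stood at -0.18, -0.35, -0.0827, -0.0572 and -0.22. Genes with groups that do not overlap then numbered 4 in H4K16Q (26.9% of all genes did not overlap) and 1 between the mutants (22.6%), the difference of the UTP and large-subunit medians was 0.26 in H4K16Q, -0.037 in H4H18A and 0.063 between the mutants, and the median in H3E50A was -1.62. With the features of ribosomal RNA and YGL088W removed, 5 genes did not overlap between the mutants (26.9% of all genes), UTP20 and UTP22 stood at 0.12 and 0.015 in H4K16Q, and the H3E50A medians were -1.86 for all 41 genes, -1.77 for UTP and -1.86 for large-subunit factors. UTP20 in H4K16Q, near 0, also stood at 0.033 with DESeq2 and with RLE scaling and at 0.0312 with only the 4 libraries compared.

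Deviations of equal replicate numbers correlated at -0.01 (H4H18A with H4K16Q), 0.43 (H4H18A with WT H4) and 0.13 (H4K16Q with WT H4). H4H18A and WT H4 thus shared part of their deviations, and the other pairs of strains shared little. Whether equal replicate numbers mark cultures handled together was not tested. With the replicate block no assembly factor was called, the UTP minus large-subunit difference was -0.16 in H4K16Q, -0.19 in H4H18A and -0.0662 between the mutants, and UTP20, NOP7, ERB1 and MAK16 in H4K16Q stood at 0.31, 0.13, 0.00786 and 0.18.

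With all 3 WT libraries as the control, NOP1 stood at -0.22 in H4K16Q, 1 gene did not overlap in H4H18A (16.2% of all genes), and the UTP minus large-subunit difference was 0.22 in H4K16Q, -0.25 in H4H18A and 0.31 in H3E50A. In H3E50A 1 gene was then above 0 (51.3% of all genes), with medians of -1.37 for all 41 genes and -1.29 for UTP factors. The single WT H4 libraries as controls of H3E50A were chosen after the data were seen. Against replicate 1, 15 genes (36.6%) passed a 2-fold change in either direction, near the 37.7% of all genes. Of these, 10 were lower and 5 higher. Above 0 were 18 genes (53.9% of all genes). The medians were -0.079 for all, -0.23 for UTP and -0.19 for large-subunit factors (difference -0.035). NOP1, NOP56, NOP58, NSR1, UTP10, RRP5 and MAK16 turned, at 0.40, 0.82, 1.54, 1.88, 0.078, 0.66 and 1.02. RRP9, NOP53 and NOP8 stayed lower, at -2.64, -2.46 and -2.07. Against replicate 2 the medians were -2.13, -1.94 and -2.47 (difference 0.53).

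Leaving out 1 library at a time, H4K16Q against WT H4 gave 0 to 58 genes called, 0 to 1 assembly factors called, 4 to 35 above 0, and medians of -0.57 to 1.40 for all 41, -0.60 to 1.34 for UTP and -0.75 to 1.57 for large-subunit factors (difference -0.23 to 0.34). H4H18A against WT H4 gave 0 to 13 genes called, 3 to 36 above 0, and medians of -0.89 to 1.35, -0.72 to 1.12 and -1.07 to 1.34 (difference -0.22 to 0.44). H4K16Q against H4H18A gave 8 to 39 above 0 and medians of -0.36 to 0.83, -0.36 to 0.90 and -0.52 to 0.78 (difference 0.065 to 0.23). The log2 fold changes of these genes took both signs in H4K16Q: NOP1 -0.38 to 2.50, NOP56 -0.11 to 3.36, NOP58 -0.28 to 4.30, UTP20 -0.69 to 1.40, UTP10 -0.34 to 2.06, UTP22 -1.17 to 0.74, NOP7 -1.33 to 1.57, NOP2 -0.31 to 2.62, ERB1 -0.71 to 0.76, RRP5 -0.34 to 2.27, RRP12 -0.57 to 1.02 and MAK16 -2.31 to 2.36. In H4H18A they were NOP56 -1.39 to 2.23, NOP58 -0.54 to 3.89, UTP20 -0.57 to 1.38, UTP10 -0.93 to 1.37, UTP22 -0.66 to 0.55, NOP7 -1.34 to 1.57, NOP2 -0.38 to 2.41, ERB1 -0.40 to 1.17, DBP2 -0.029 to 1.85, RRP5 -0.48 to 1.99, RRP12 -0.94 to 0.50, NOP16 -2.41 to 0.81, MAK16 -1.86 to 4.05 and UTP6 -0.81 to 0.0043. Between the mutants MAK16 lay at -2.66 to 0.67 and NOP1 at -1.16 to 0.43. Among the genes followed in this way, NSR1 and DBP2 stayed above 0 in H4K16Q whichever library was left out, and NOP16, NOP53 and UTP6 below 0. In H4H18A NSR1 and NOP1 stayed above 0 and NOP53 below 0. Not all 41 genes were followed over these fits, so others may hold their sign too. Shares over all genes are given only for the fits without a WT H4 library. The other counts above 0 do not separate the assembly factors from a shift of all genes. Counts of genes that do not overlap were not computed with a library left out, and all 3 WT libraries have no place in the comparison of the mutants. The cause of these changes was not tested.

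With 2 libraries a strain, and 1 each for H3E50A and WT H3, differences smaller than those between replicates cannot be seen. H4H18A, at 852659 counts or less, limits low genes most, since 3 counts stand at 7.06 and 3.44 CPM there.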
